A study of Mus musculus with 12 samples.

Results

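SLM2 cross-linking in mouse whole brain left 282 peaks that lay deep inside introns and in repeat-masked sequence, out of 2057 peaks in the merged whole-brain list and 1741 deep intronic peaks. A peak was counted here when its centre fell in an intron more than 1000 nt from every exon on the same strand and when more than 50% of the window, the centre and 50 nt on each side, was lower case (repeat-masked) in the GRCm38 genome. The other 1459 deep intronic peaks served as the comparison, together with tiles of the same length placed every 500 nt through the deep introns of the same genes. The peaks came from eCLIP, which joins protein to RNA with UV light, pulls the protein down and sequences its RNA next to an input cut at the same size. The whole-brain list merged 2 eCLIP libraries over 2 inputs from wild-type mice 30 days of age, and a second list of 178 peaks merged the same numbers of libraries from wild-type hippocampus at that age. All tissue received 3 exposures of 400 mJ/cm2. The 4 libraries of Slm2 knockout hippocampus were not analysed here. Each peak therefore has 1 log2 fold change of eCLIP over input for the tissue and none per replicate, and depth per library is not in the lists, so p-values below measure spread between genes or peaks and not between animals. Whole tissue also mixes neurons with other cells. Of 12 astrocyte, 14 microglial or endothelial and 14 interneuron marker genes, 0 held a deep intronic peak, and among 16 oligodendrocyte markers 1 did (Mbp, with 3 deep peaks, 0 of them masked). Over the whole annotation 343 of 55450 genes held one, so counts of 0 in lists this short say nothing about cell types.

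SLM2, encoded by Khdrbs3, belongs to the STAR family of RNA-binding proteins, which regulate alternative splicing of neuronal transcripts. It recognises short A/U-rich elements, among them the tetramer UWAA (UUAA or UAAA). Introns of long neuronal genes are full of sequence left by mobile elements: B1 and B2 elements, which are short and spread with the machinery of LINE-1, and LINE-1 copies, most of them cut short so that only the 3′ end is left. Repeat masking also covers microsatellites and low-complexity stretches, so a masked window is not by itself a copy of a mobile element.

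The sequences below are the windows around peak centres, read 5′ to 3′ on the transcribed strand of GRCm38 with DNA letters, with every UWAA in capitals. The first windows show the 2 arrangements met most often among peaks that resembled each other. In the first, A/U-rich sequence with UWAA stood 5′ of the start of a B1-like element (Pcdh15, Dip2b) or a B2-like element (Kcnd2, Akap6).
Pcdh15 (chr10:73390436-73390536, plus strand): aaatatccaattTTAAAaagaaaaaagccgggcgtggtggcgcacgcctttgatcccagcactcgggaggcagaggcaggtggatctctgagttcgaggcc
Dip2b (chr15:100188178-100188278, plus strand): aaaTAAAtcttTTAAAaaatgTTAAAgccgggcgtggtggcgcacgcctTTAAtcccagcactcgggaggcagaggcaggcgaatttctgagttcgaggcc
Kcnd2 (chr6:21469718-21469818, plus strand): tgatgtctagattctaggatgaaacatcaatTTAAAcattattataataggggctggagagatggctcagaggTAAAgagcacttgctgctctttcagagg
Akap6 (chr12:52798252-52798352, plus strand): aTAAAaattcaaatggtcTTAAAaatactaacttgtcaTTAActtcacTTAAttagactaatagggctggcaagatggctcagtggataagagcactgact

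In the second arrangement, a G-rich stretch like the 3′ end of LINE-1 ran into an A-rich tail with UWAA 3′ of the centre. It came in 3 variants, with Syt1 from the first, Cadm2 and Lrp1b from the second, and Mdga2 and Ptprd from the third.
Syt1 (chr10:108878371-108878471, minus strand): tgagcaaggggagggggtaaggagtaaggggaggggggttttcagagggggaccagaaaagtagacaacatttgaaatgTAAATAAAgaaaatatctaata
Cadm2 (chr16:67024430-67024530, minus strand): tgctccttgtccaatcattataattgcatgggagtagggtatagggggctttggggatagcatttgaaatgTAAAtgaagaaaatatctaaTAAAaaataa
Lrp1b (chr2:42217176-42217276, minus strand): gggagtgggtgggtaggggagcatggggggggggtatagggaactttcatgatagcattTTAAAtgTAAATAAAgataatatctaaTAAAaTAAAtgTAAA
Mdga2 (chr12:66995331-66995431, minus strand): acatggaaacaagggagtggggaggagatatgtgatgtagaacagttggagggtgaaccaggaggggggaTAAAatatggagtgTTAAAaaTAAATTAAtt
Ptprd (chr4:77653308-77653408, minus strand): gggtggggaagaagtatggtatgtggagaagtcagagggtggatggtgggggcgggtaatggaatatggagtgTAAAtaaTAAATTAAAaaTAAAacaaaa

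A further pair of windows, taken from tiles, shows the same kinds of element lying the other way round in the transcript. These are masked tiles of Phactr1 (B1-like) and Il1rapl1 (LINE-1-like), both genes that held a peak on an element of that kind.
Phactr1 (chr13:43007623-43007723, plus strand): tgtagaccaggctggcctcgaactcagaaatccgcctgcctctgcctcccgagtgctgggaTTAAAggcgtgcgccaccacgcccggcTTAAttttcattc
Il1rapl1 (chrX:86971870-86971970, minus strand): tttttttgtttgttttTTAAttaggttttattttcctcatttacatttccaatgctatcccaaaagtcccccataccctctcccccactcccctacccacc

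Peaks were set side by side with blastn over both strands, and those sharing at least 40 nt of similar sequence were grouped around the window with the most matches. This gave 5 groups, named here by what their windows resemble and not from a repeat annotation. Since the groups were formed after the windows had been read, their values are described without tests. They held 65 of the 282 peaks (23.0%) in 48 genes. The B1 start group had 19 peaks in 18 genes, the B2 start group 6 peaks in 6 genes, and the LINE-1 end groups a, b and c had 14, 14 and 12 peaks in 11, 13 and 11 genes. Identity to the window at the centre of the group ran from 71.4% upward, with a median of 82.6%.

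All 65 grouped peaks carried the element in the same orientation as the central window of their group, called sense here. Both orientations were allowed in the grouping, and the 60 peaks besides the 5 central windows were 60 sense and 0 antisense. Each central window covers only part of an element. Peaks on other parts of such elements, in either orientation, could not match it and were not counted. Masked tiles of the genes with masked peaks that matched the same 5 windows were 815 sense and 952 antisense (46.1% sense). In the B1 start group the tiles were 285 sense and 301 antisense, in the B2 start group 100 and 103, and in the LINE-1 end b group 311 and 379. The 6 matching windows among the other deep intronic peaks were also 6 of 6 sense.

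**Figure D1:**
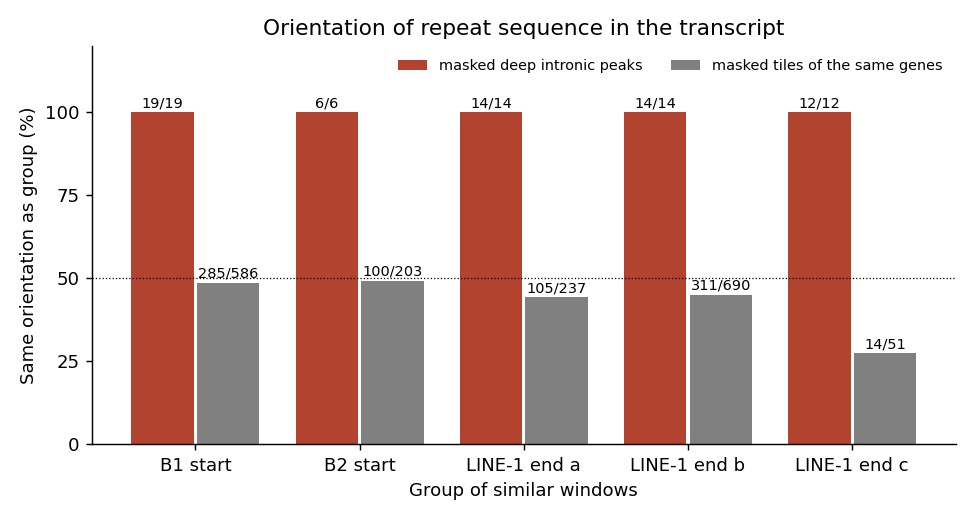
Share of windows (y axis, percent) that carry the repeat in the orientation of the group's peaks, for the 5 groups of similar windows (x axis); red bars are masked deep intronic peaks, grey bars masked tiles of the genes with such peaks, and the counts stand above the bars. Every red bar is at 100% (19, 6, 14, 14 and 12 peaks), whereas the grey bars lie between 27.5% and 49.3%.

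The position of UWAA differed between the 2 arrangements. The groups were formed on the sequence of these same windows, so similar positions within a group follow in part from the grouping. In the B1 start group, UWAA density (starts per 100 positions) averaged 6.44 in the 5′ part of the window and 0.967 in the 3′ part, and 18 of 19 peaks had the higher value 5′ of the centre. The B2 start group averaged 6.12 and 1.36, with 6 of 6 peaks higher on the 5′ side. The LINE-1 end groups showed the reverse: 0.437 and 3.94 in group a, 1.60 and 7.58 in group b, and 1.19 and 8.50 in group c. The 3′ side was higher in 11 of 14, 12 of 14 and 10 of 12 peaks of these groups. Among the 196 peaks in no group and without a tandem repeat, the means were 5.51 on the 5′ side and 4.25 on the 3′ side, and 103 peaks were higher on the 5′ side against 57 on the 3′ side.

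**Figure D2:**
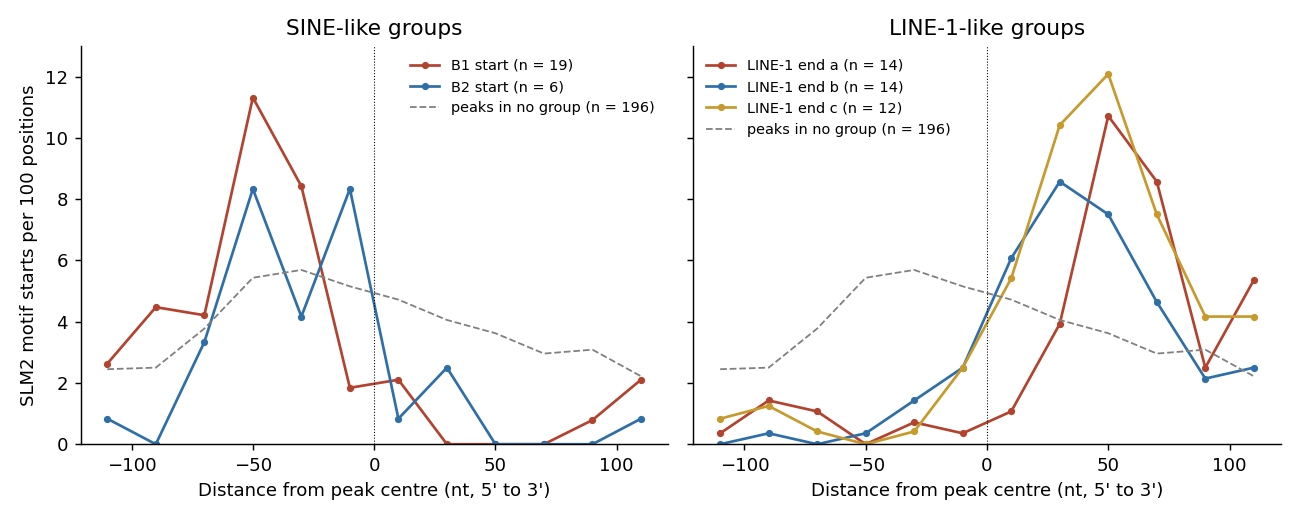
Density of UWAA, the SLM2 motif (y axis, starts per 100 positions in bins of 20 nt), by distance from the peak centre (x axis, nt, 5′ to 3′) in the B1 and B2 start groups (left) and the LINE-1 end groups (right), each against the 196 peaks in no group (dashed grey). The B1 start group reached 11.3 in the bin from -60 to -41 and was at 0 from 20 to 59, while LINE-1 end group c was at 0 from -60 to -41 and reached 12.1 from 40 to 59.

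In the LINE-1-like groups the motif was denser in sense than in antisense tiles. Matching sense tiles held a mean of 2.59, 3.20 and 4.88 UWAA per 100 positions in groups a, b and c, against 2.19, 4.59 and 4.85 at the peaks, whereas matching antisense tiles held 0.773, 0.983 and 1.27. In the B1 and B2 start groups the motif at the peaks (3.71 and 3.74) exceeded that of matching tiles in either orientation, at 1.34 sense and 2.07 antisense for B1 and 1.63 and 1.44 for B2. Tiles fall anywhere on an element, so their density also covers parts that the peaks did not. For the LINE-1 end c group only 14 sense tiles and 37 antisense tiles matched.

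Across all 282 peaks, UWAA density was far above that of masked tiles in the same genes. The mean was 4.62 ± 2.98 per 100 positions (SD over peaks) against 1.27 ± 1.73 in the 35153 masked tiles of the 134 genes with masked peaks. Over all 343 genes with deep intronic peaks it was 1.23 ± 1.70 in 63277 masked tiles and 1.46 ± 1.58 in 202764 unmasked tiles. At least 1 UWAA was present in 259 of 282 peaks (91.8%, exact 95% binomial interval 88.0 to 94.8%), in 53.4% of the masked tiles of those 134 genes and, over all 343 genes, in 52.3% of masked and 64.5% of unmasked tiles. Taking each of the 134 genes as its own control, the mean of the gene means was 4.78 at the peaks and 1.29 in the masked tiles. The peaks were higher in 119 genes and lower in 14, with 1 tie (exact two-sided sign test over genes, Benjamini-Hochberg adjusted p = 6.35e-21). Flanks centred 500 nt away from the same peaks averaged 1.80, and the centre was higher than the flanks in 109 genes and lower in 20 (exact sign test, adjusted p = 1.27e-15). The windows were also richer in A (38.7%) than masked tiles (28.3%) and other deep intronic peaks (33.8%), and poorer in C (14.2% against 20.5% and 17.4%).

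**Figure D3:**
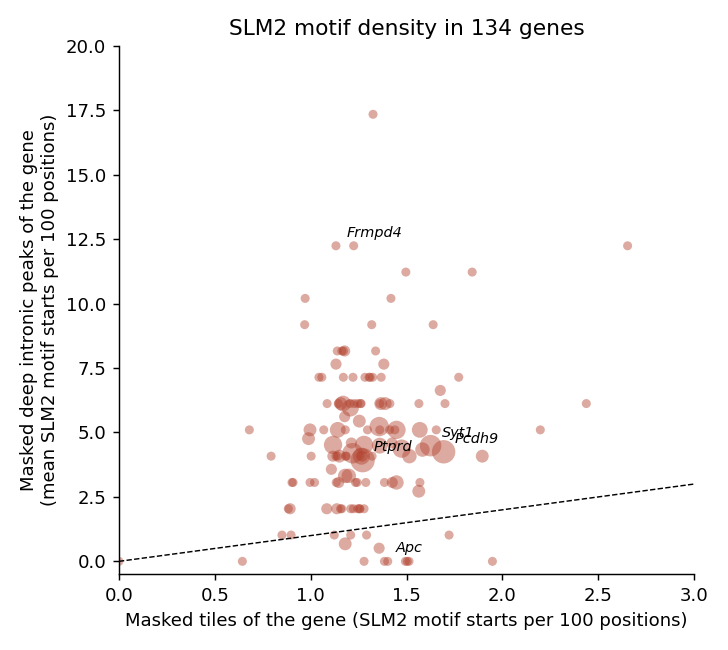
Mean UWAA (SLM2 motif) density of the masked deep intronic peaks of a gene (y axis, starts per 100 positions) against that of the masked tiles of the same gene (x axis), 1 point for each of 134 genes, with area growing with the number of peaks and the dashed line marking equality. In 119 genes the point lies above the line, Robo1 at 17.3 and Frmpd4 at 12.2 among them, and in 14 it lies below, with Apc at 0.

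Between the masked and the other deep intronic peaks the motif did not differ by the test within genes. The other peaks averaged 3.60 ± 2.52 and held at least 1 UWAA in 85.5% of cases (83.6 to 87.3%). In 88 genes with both kinds, the gene means were 4.70 for masked and 3.77 for other peaks. The masked peaks were higher in 50 genes and lower in 36 (exact sign test, adjusted p = 0.229), and the call depended on the setting: with more than 2000 nt to the nearest exon it was 51 against 30 genes (adjusted p = 0.0366).

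**Figure D4:**
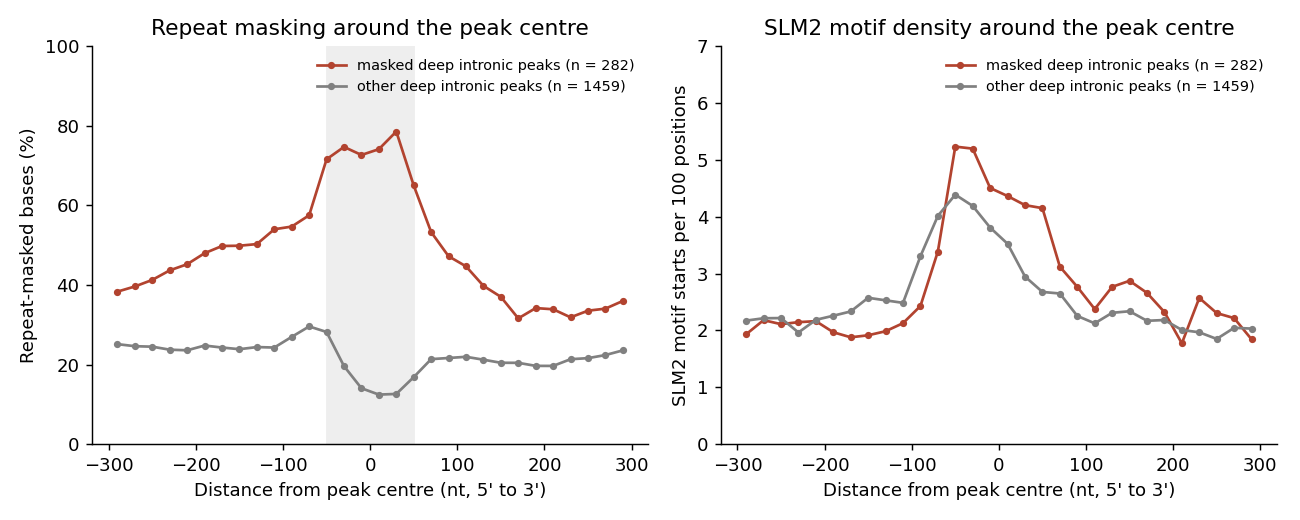
Repeat-masked bases (left, percent) and UWAA, the SLM2 motif (right, starts per 100 positions), in bins of 20 nt by distance from the peak centre (x axis, nt, 5′ to 3′) for the 282 masked (red) and 1459 other (grey) deep intronic peaks; the grey band marks the window that the masking rule used. Motif density was highest at -60 to -41 in both (5.23 and 4.39). Masking of the other peaks was 29.6% at -80 to -61 and 12.5% at 0 to 19. The rule that set the masked and other peaks apart used masking inside the band, so their masking there is no separate finding.

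Repeat-masked sequence was under-represented at the centres of deep intronic peaks. Of 1741 peaks, 282 (16.2%, exact interval 14.5 to 18.0%) were masked, where the tile shares of their genes gave an expected number of 395.4 (22.7%). That number counts every masked tile, also the 30.6% whose median 24-mer had more than 100 copies in the genome. Whether reads could be placed in such sequence was not tested, so under-representation here refers to called peaks. Pooled within genes, the difference had an adjusted p of 2.32e-10 (Mantel-Haenszel test over 343 genes, chosen after the data were seen). The exact sign test over genes gave 94 genes above and 247 below their tiles (adjusted p = 1.82e-16), but a gene with few peaks has a masked share of 0 more often than not, so that test leans towards the lower side. The result rested on where the window was put. When the window was moved to the 5′ end of each peak, 431 of 1741 (24.8%) were masked, slightly above the expected 395.4 (Mantel-Haenszel, unadjusted p = 0.0390, n = 343 genes), and 232 of these 431 were not masked at the centre. Aligned on the 5′ end, masking of all deep intronic peaks was highest just upstream of it, at 38.2% from -20 to -1, and stood at 24.4% from 20 to 39.

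Short tandem repeats, runs of a unit of at most 6 nt over at least 20 nt, showed the same dependence. They were present in 24 of 282 masked peaks (8.51%, 5.53 to 12.4%) against an expected 42.5 from the masked tiles of the same genes (15.1%, Mantel-Haenszel, adjusted p = 0.00507, n = 134 genes). The exact sign test, which leans low here too, gave 19 genes above and 113 below their tiles (adjusted p = 9.06e-17). With more than 80% of the window masked, 11 peaks held one against 14.0 expected, and the pooled test did not pass (Mantel-Haenszel, unadjusted p = 0.466, n = 72 genes). At the 5′ end they were present in 92 of 431 masked windows (21.3%), above an expected 65.9 (Mantel-Haenszel, unadjusted p = 0.000754, n = 165 genes). AAAT was the unit in 27 of those 92 windows and AAT in 20.

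The units differed from those of the introns around them, which is described without a test. AAAT was the commonest unit at peak centres, with 7 of 24 peaks, in Cacna2d1, Csmd1, Dcaf6, Dlg2, Dscam, Gm26871 and Unkl, and it contains the letters UAAA. In masked tiles the commonest units were GT (14.9% of tiles with a tandem repeat) and AC (14.0%), which cannot form UWAA. AAAT took 89 of the 9185 masked tiles with a tandem repeat. Frmpd4, a postsynaptic scaffold gene, and Hs3st4, a heparan sulfate sulfotransferase gene, each held a peak on a run of AAACT, a unit that no masked tile of 343 genes carried. Both peaks were among those that overlapped a hippocampal peak.
Frmpd4 (chrX:168003526-168003626, minus strand): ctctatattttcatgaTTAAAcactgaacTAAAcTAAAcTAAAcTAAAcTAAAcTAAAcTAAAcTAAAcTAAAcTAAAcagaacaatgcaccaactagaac
Hs3st4 (chr7:124141168-124141268, plus strand): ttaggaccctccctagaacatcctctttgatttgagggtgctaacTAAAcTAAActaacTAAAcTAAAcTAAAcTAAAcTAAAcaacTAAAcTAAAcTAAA

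Some other tandem repeats carried no UWAA, although 16 of 21 peaks on tandem repeats outside the groups held it, a Celf2 peak on GGTT among them. There were 0 UWAA in the peaks of Spred2, an inhibitor of Ras signalling, Atf2, a transcription factor, and Erbb4, the neuregulin receptor. Their log2 fold changes were 3.80, 3.26 and 3.71. The Atf2 and Erbb4 peaks stood on runs of GGTT and AGGGTT. That of Spred2, printed below, stood on a run that was mostly GGTT with GGGT units among it. Of all 282 peaks, 23 had no UWAA in the window, 16 of them in no group and 5 on a tandem repeat.
Spred2 (chr11:20010424-20010524, plus strand): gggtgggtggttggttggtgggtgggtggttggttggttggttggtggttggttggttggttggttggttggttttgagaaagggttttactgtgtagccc

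The peaks as called lay in sequence that was less repeated in the genome than masked intron sequence at large. A peak can be called only where reads were placed, so the comparison is not independent of read placing. In 225 of 282 peaks (79.8%) the median 24-mer of the window occurred once in the genome, as it did in 47.1% of masked tiles, and 11 peaks (3.90%) stood above 100 copies against 30.6% of tiles. Gene by gene, copy number was lower at the peaks in 63 genes and higher in 22, with 49 ties (exact sign test, adjusted p = 1.96e-05). With 36-mers 262 peaks (92.9%) and 63.6% of tiles were at 1 copy, while 10 genes were higher at the peaks and 3 lower, so that the direction turned and the test did not pass (exact sign test, adjusted p = 0.154). The most repeated windows were those of Grin1 and Dip2b on B1-like elements, with a median of 2889 and 2004 copies, and how reads with several possible positions were placed was not tested. No masked peak held 10 nt or more of the ligated adaptors (0 of 282, which allows up to 1.30% by the exact interval), against 11 of 1459 other deep intronic peaks and 0.972% of all whole-brain peaks (Fisher's exact test, adjusted p = 0.287).

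Enrichment over input did not differ between masked and other peaks by either test. The log2 fold change of masked peaks ran from 2.00, the limit of the list, to 4.68, with a median of 2.60, and that of the other deep intronic peaks had a median of 2.55. A log2 fold change of at least 3 was reached by 64 of 282 masked peaks (22.7%, 17.9 to 28.0%) and 323 of 1459 others (22.1%, 20.0 to 24.4%), against 22.2% of all deep intronic and 22.6% of all whole-brain peaks (Fisher's exact test, adjusted p = 0.876). Within the 88 genes with both kinds, the masked median was higher in 46 genes and lower in 42 (exact sign test, adjusted p = 0.833). The group medians lay between 2.46 in LINE-1 end b and 2.69 in peaks on tandem repeats. Peaks were of similar length, with a median of 103 nt against 107 nt, and median distance to the nearest exon was 21919 nt against 18083 nt.

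**Figure D5:**
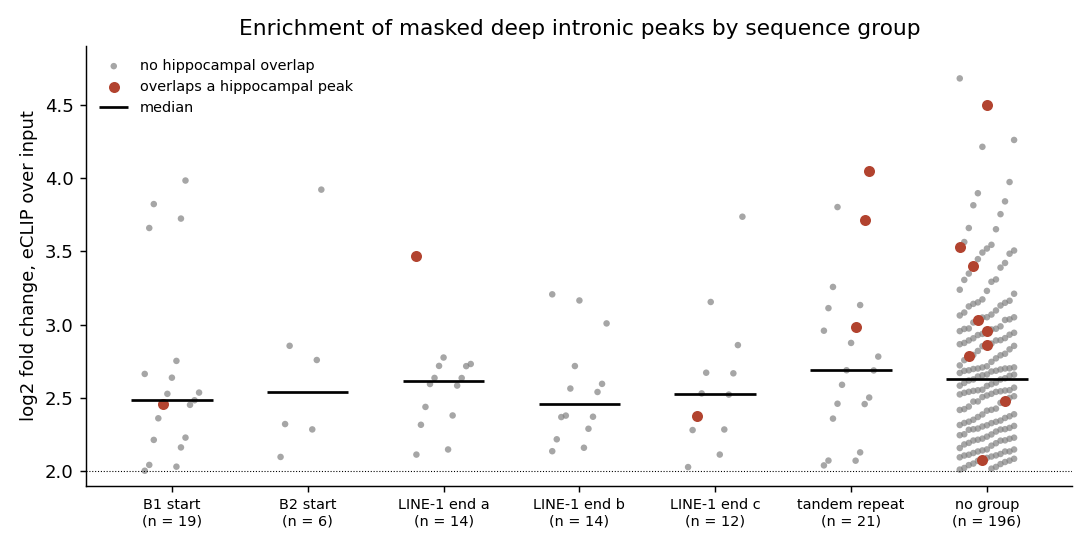
The log2 fold change of eCLIP over input (y axis) of each of the 282 masked deep intronic peaks by sequence group (x axis, with the number of peaks), red where the peak overlaps a hippocampal peak, with black bars at the group medians and a dotted line at the limit of the list. The medians lie between 2.46 and 2.69, and the 15 red points are spread over 5 of the 7 classes.

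The 5 highest values were outside the repeat groups, but the groups held only 23.0% of the 282 peaks. Apc, a regulator of Wnt signalling, had the highest log2 fold change at 4.68, with 0 UWAA in its window. Syt1, the calcium sensor of synaptic vesicle release, followed at 4.50 with a density of 8.16. Jmjd1c, a gene of the histone demethylase family, stood at 4.26 and Hacd3, an enzyme gene of fatty acid elongation, at 4.21. Frmpd4 followed at 4.05, with the highest −log10 p of the 282 peaks (36.9) and a density of 12.2. The Syt1 window was dense in UUAA and unique in the genome, and Robo1, an axon guidance receptor gene, had the highest density of all at 17.3 with a log2 fold change of 3.65.
Syt1 (chr10:108942396-108942496, minus strand): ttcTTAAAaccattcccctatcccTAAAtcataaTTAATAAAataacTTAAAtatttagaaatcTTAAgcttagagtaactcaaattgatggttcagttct
Robo1 (chr16:72761204-72761304, plus strand): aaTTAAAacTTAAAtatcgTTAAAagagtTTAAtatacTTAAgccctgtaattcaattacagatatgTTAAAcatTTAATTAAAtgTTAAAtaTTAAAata

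The 282 peaks were spread over 134 of the 343 genes with deep intronic peaks, with 1 peak in 88 genes, 2 in 16 and 3 or more in 30. The 10 genes with the most masked peaks held 86 of them (30.5%). Ptprd, a presynaptic receptor phosphatase, had 13 masked among 87 deep peaks (14.9%, exact interval 8.20 to 24.2%), with log2 fold changes from 2.09 to 3.74, and 5 of the 13 were in the LINE-1 end groups. Of its tiles 26.3% were masked, above that interval. Pcdh9, a protocadherin, had 12 of 62 (19.4%), none of them in a group, with values from 2.07 to 2.70. Syt1 had 10 of 48 (20.8%) and Csmd1, a complement-control protein of neurons, 9 of 46 (19.6%). Nrg3, a neuregulin ligand, had 8 of 56 and Cadm2, a synaptic adhesion molecule, 7 of 73 (9.59%, 3.94 to 18.8%), with 23.9% of tiles masked. Adgrb3, an adhesion receptor, had 6 of 31.

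Masked peaks took a larger share of the deep intronic peaks in Fgf14 and Ncam2. Fgf14, an intracellular partner of sodium channels, had 7 masked of 11 (63.6%, 30.8 to 89.1%), where 39.0% of its tiles were masked. Ncam2, a cell adhesion gene, had 7 of 21 (33.3%, 14.6 to 57.0%), where 27.6% of tiles were masked. These intervals include the tile shares of Fgf14 and Ncam2. In 46 genes every deep intronic peak was masked, and 43 of these had a single deep peak. All but 6 of the 282 peaks were in protein-coding genes. Amy1 belongs to a family of near-identical genes, and the Gm47283 peaks were listed on the Y chromosome. The median 24-mer of the window was at 1 copy in the Amy1 peak and at 2 and 5 copies in the peaks of Gm47283, and the placing of their reads was not tested.

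The functional lists are described by their counts beside the 16.2% of all deep intronic peaks, without a test. Among synaptic adhesion genes, 20 of 31 genes with deep peaks held 93 masked of 637 peaks (14.6%, 11.9 to 17.6%), led by Ptprd, Pcdh9 and Csmd1. Presynaptic release genes had 25 of 123 (20.3%, 13.6 to 28.5%) in 7 genes, among them Syt1 and the active zone gene Rims1. Glutamate receptor genes had 18 of 95 (18.9%, 11.6 to 28.3%) in 7 genes. Among them were the AMPA receptor gene Gria4 with 4 of 8 (15.7 to 84.3%) and the kainate receptor gene Grik2 with 3 of 18. Of the tiles of these 2 genes, 38.7% and 32.5% were masked. Potassium channel genes and partners had 13 of 80 (16.2%, 8.95 to 26.2%), with 4 each in Kcnd2 and in Pex5l, a partner of HCN channels, and 2 in Kcnh7. All 4 peaks of Kcnd2, which encodes a channel of the A-type current, were in the repeat groups. Postsynaptic scaffold genes had 15 of 120 (12.5%, 7.17 to 19.8%), with 4 each in Dlg2 and Lrrc7 and 2 in Anks1b.

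Genes of splicing regulators and RNA-binding proteins had 9 masked of 125 deep intronic peaks (7.20%, 3.34 to 13.2%). Rbfox3, a splicing regulator of neurons, gave 83 of the 125 with 1 masked, and 11.1% of its tiles were masked. Without Rbfox3 the list had 8 of 42 (19.0%, 8.60 to 34.1%). Celf2, a CELF family splicing regulator, held 5 of the 9, while Elavl3, Rbfox1, Rbfox3 and Khdrbs3 held 1 each. The peak in Khdrbs3, the gene of SLM2 itself, had a log2 fold change of 2.70 and a density of 8.16. Axon guidance genes had 4 of 16 (25.0%, 7.27 to 52.4%), in Epha6, Robo1 and Unc5d, and GABAergic synapse genes 1 of 6, in Gabbr2. Of 13 genes named as SLM2 targets by the study, all had deep intronic peaks and 10 had masked ones, 26 of 204 peaks (12.7%, 8.50 to 18.1%). Among these were Lrrtm4 with 5, Gria4 with 4, Erbb4, Grm5 and Stxbp5l with 2 each and Dlgap1, Dlgap2, Nlgn1 and Nrxn3 with 1 each. Since the study chose that list on these libraries, its counts are no independent evidence.

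Masked peaks met a hippocampal peak more often than the other deep intronic peaks did, a call that did not hold under several settings. At least 1 nt on the same strand was shared by 15 of 282 masked peaks (5.32%, 3.01 to 8.62%) and 32 of 1459 others (2.19%, 1.50 to 3.08%), against 2.87% of all whole-brain peaks (Fisher's exact test, adjusted p = 0.0124). Several peaks can come from 1 transcript, and 4 of the 15 were in Csmd1 and 2 in Syt1. Without Csmd1 the shares were 11 of 273 (4.03%) and 25 of 1422 (1.76%), and the call was lost (Fisher's exact test, adjusted p = 0.0581, chosen after the data were seen). With Csmd1 kept, it was also lost when at least 50% of the peak had to be shared (Fisher's exact test, adjusted p = 0.182), with masking taken over the whole peak, with more than 80% masked and in peaks with log2 fold changes of 3 or more. With the window at the 5′ end of the peak the difference turned, to -0.196 percentage points. The 15 peaks lay in 11 genes. Syt1 had 4.50 in whole brain and 3.20 in hippocampus, and its LINE-1 end a peak 3.47 and 2.18. Frmpd4 had 4.05 and 4.45, Erbb4 3.71 and 2.45, Csmd1 3.53 and 2.41 at its highest peak, Dlg2 3.40 and 2.53, Ctnnd2 3.03 and 2.37 and Hs3st4 2.98 and 2.66. Over the 15, the log2 fold change was higher in hippocampus in 5 and lower in 10, with a median difference of -0.626, hippocampus minus whole brain. UWAA was present in 14 of the 15 windows, the exception being Erbb4. A peak in 1 tissue may differ by the number of cells with the RNA or by binding per RNA, which cannot be told apart in whole tissue.

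The same rule was applied to the hippocampal list. Of its 178 peaks, 96 were deep intronic and 45 of these were masked (46.9%, 36.6 to 57.3%), against 16.2% in whole brain. In the genes with tiles, 40 of 87 hippocampal peaks were masked where 20.4 were expected, a ratio of 1.96, while whole brain had a ratio of 0.713. With the window at the 5′ end of the peak, 24 of the 87 were masked, a ratio of 1.18 against 1.09 in whole brain. With 1 list per tissue the difference was not tested. Of the 45, 16 overlapped a whole-brain peak and 29 did not. UWAA density averaged 5.48 in those 16 and 2.64 in the 29, and 22 of the 29 held at least 1 UWAA. Tandem repeats were present in 13 of the 45 (28.9%), with AC the commonest unit in 4, and 6 of the 45 matched a repeat group, all 6 in the sense orientation.

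At the limits of the rule, peaks on both sides were compared without a test. The 8 peaks just inside, with 50.5% of the window masked, had log2 fold changes from 2.07 to 3.42 and a mean UWAA density of 6.38. The 8 peaks just outside, at 49.5%, had values from 2.09 to 3.40 and a density of 3.95. Nearest to an exon were the peaks of Dcaf6 at 1035 nt (log2 fold change 2.13), Nf1 at 1153 nt (3.52) and Gm26871 at 1197 nt (2.59), and the masked intronic peaks of Nrxn2 at 914 nt (2.99), Gria2 at 872 nt (2.01) and Mctp1 at 683 nt (3.02) fell outside. In all, 18 masked intronic peaks lay within 1000 nt of an exon, with a median log2 fold change of 2.69 and a mean UWAA density of 4.93.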

How the data were processed

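The labels describe 12 libraries in 6 groups of 2. Per the labels and the study's methods, the authors used cutadapt 3.4 for trimming, STAR 2.7.9 for alignment (mm10) and UMI-tools 1.1.1 against duplicates, then CLIPper for peaks and IDR to merge the replicates of a tissue. The deposited lists hold, per peak, the log2 fold change of eCLIP over input, a −log10 p and a score (−log10 IDR), with minimum values of 2 for the log2 fold change and the score. The files have no header, and the columns were identified through a supplementary sheet of the same layout. They hold no read counts, so depth is unknown.

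Genes came from GENCODE vM21, and sequence and masking from soft-masked GRCm38, whose masking program is not given in the sources used here. UWAA was counted on the strand of the peak within 50 nt of the centre. Tandem repeats needed at least 20 nt with 90% of positions matching, with units of up to 6 nt. Copies of 24-mers and 36-mers were counted in the genome. Similar windows were found with blastn (word size 7, e-value 1e-05, at least 40 nt, at least 6 windows a group), and each window took its best match. Genes were compared by exact two-sided sign tests and peaks by Fisher's exact tests, adjusted by Benjamini-Hochberg over 1 family at 0.05, with exact 95% intervals that cover counting error only. Mantel-Haenszel tests, the groups, the hippocampal rule and the runs without Csmd1 or Rbfox3 were added after the data were seen. The members and gene lists were chosen with earlier results of these data known. Genes are named if among the 10 with the most masked peaks, the 5 highest log2 fold changes, the study's targets, up to 10 with hippocampal overlap, the leading gene of the 5 commonest tandem units, or the first 3 of a gene list, while all others were chosen after their values were seen. Some genes are not reported here. The statistics were tested on simulated data. Alternatives were stricter limits, other windows, the top gene left out and adaptor matches left out. Python 3.11.15, numpy 2.4.6, pandas 2.3.3, scipy 1.17.1, numba 0.67.0, statsmodels 0.14.6, pysam 0.24.0, blastn 2.17.0 and matplotlib 3.10.9 were used.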

Additional observations from a re-analysis of the deposited data

Results flagged for a closer look

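The masked share of deep intronic peaks lay on opposite sides of the introns around them in the 2 tissues when windows were centred on the peak. In hippocampus it was 1.96 times the number expected from the tiles of the same genes, and in whole brain 0.713 times. With the window at the 5′ end of the peak the ratios were 1.18 and 1.09, both above 1. The difference between the tissues was not tested, since each has 1 merged list.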

How the results depend on the processing

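Of 84 alternative values, 63 were unchanged. For tests this meant the same direction and side of the threshold, and for counts of masked peaks a value close to the reported one. The UWAA differences from masked tiles and from flanks did so under every alternative run. The number of masked peaks was 64 when a log2 fold change of 3 or more was required, 113 with more than 80% masked and 431 with the window at the 5′ end. The excess of hippocampal overlap (3.13 percentage points) no longer passed at 5.06 in peaks with log2 fold changes of 3 or more, 1.84 with more than 80% masked, 1.71 with masking over the whole peak, 1.70 with at least 50% shared and 2.27 without Csmd1, and was -0.196 at the 5′ end. The difference in log10 copies (-0.137) no longer passed at -0.0562 in the same stronger peaks and was 0.0612 with 36-mers, where 10 genes were higher and 3 lower. UWAA against other deep intronic peaks (0.931) passed at 1.08 with more than 2000 nt to exons and at 1.25 at the 5′ end, and was -0.173 with more than 80% masked. The share reaching a log2 fold change of 3 differed by -4.84 percentage points with more than 80% masked and -0.754 with more than 2000 nt to exons. Within genes, the log2 fold change differed by -0.0430 with more than 80% masked and 0.0167 with masking over the whole peak (41 genes higher, 49 lower), and passed at 0.122 at the 5′ end. There, the mean masked share exceeded that of tiles by 5.51 percentage points, and the tandem share by 3.63, although more genes lay below their tiles. The pooled tandem test did not pass with more than 80% masked (11 peaks against 14.0 expected). The cause of these changes was not tested. No paired analysis was possible because each tissue has 1 list merged over its replicates, which also prevented leaving out a replicate. Depth is not in the lists, so peaks missed for low coverage cannot be counted.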
